A study of Ovis aries with 20 samples.

Results

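The interventricular septum, the muscular wall between the ventricles, was compared between 5 newborn lambs whose mothers had received cortisol and 5 whose mothers had received vehicle. These were the 10 septum arrays of a sheep (Ovis aries) series of 20; the other 10 arrays held left ventricle (LV). Ewes of the cortisol group were infused continuously with cortisol at 1 mg/kg per day from near gestation day 115 to birth. Ewes of the control group received vehicle over the same period, so all lambs came from infused mothers, and the titles describe all animals as telemetry newborns. Tissue was collected 10 to 480 min after birth, and which lamb was taken when is not given in the sources used here. The treatment was given to the ewe, so the cortisol that reached each lamb was not measured by these arrays. Each array held RNA of 1 lamb, labelled from 100 ng, and each value below is the log2 processed signal minus the array's own 75th percentile. A value of 0 is therefore the 75th percentile of that array, and a difference of 1 is 2-fold. Of 15008 probes, 10369 exceeded background clearly on 5 or more septum arrays and were tested. They included 686 genes that could be named, each represented by its brightest probe.

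Cortisol enters heart cells and acts through the glucocorticoid receptor, encoded by NR3C1, and the mineralocorticoid receptor, encoded by NR3C2. The enzymes HSD11B1 and HSD11B2 respectively regenerate and inactivate cortisol inside cells. Before birth the heart grows largely by dividing its muscle cells, and around birth these cells leave the cell cycle, enlarge, shift from glucose towards fatty acids as fuel, and are surrounded by more collagen matrix. The late fetal rise in cortisol is known to take part in this maturation, and maternal cortisol excess is known to alter it.

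The results turn on few probes of the array, and 5 are shown as designed, 5′ to 3′, because they stand for the kinds of pattern described below. They are for a gene that separated the groups on most arrays, the gene with the largest difference among those always detected, a collagen, a metabolic regulator that differed between slides, and an interferon target that differed between lambs.
APOA1: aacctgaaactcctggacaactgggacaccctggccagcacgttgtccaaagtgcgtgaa
TNNC2: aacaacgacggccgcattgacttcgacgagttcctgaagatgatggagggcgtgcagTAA
COL1A2: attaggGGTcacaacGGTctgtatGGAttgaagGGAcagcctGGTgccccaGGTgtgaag
PPARGC1A: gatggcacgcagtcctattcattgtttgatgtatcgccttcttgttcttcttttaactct
ISG15: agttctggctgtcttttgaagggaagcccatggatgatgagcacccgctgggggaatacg
In the TNNC2 probe the capitals mark the stop codon that ends the reading frame. In the COL1A2 probe they mark 6 glycine codons, which recur at a fixed spacing of 3 codons, the repeat that lets 3 collagen chains wind into a triple helix. Each probe holds 60 bases, and no genome position is given because no genome of the probes was used here.

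The tissue label was checked against cell markers. The cardiac muscle genes MB, encoding the oxygen carrier myoglobin, CRYAB, a small heat shock protein, TPM1, tropomyosin 1, and MYH7, the slow myosin heavy chain, were far above the 75th percentile on all 10 arrays. Their values ran from 7.88 to 8.87 for MB, 7.84 to 9.15 for CRYAB, 6.78 to 7.94 for TPM1 and 3.05 to 4.44 for MYH7. They were the 4 of 25 cardiomyocyte markers that could be named and tested. The arrays lay on 2 slides, which held both groups. Slide 1 carried control 1, 2 and 4 and cortisol 1, 2 and 3, and slide 2 carried control 3 and 5 and cortisol 4 and 5. Between 63.95% and 72.14% of spots per array were well above background, and the arrays' 75th percentiles lay between 154.6 and 440.2 intensity units. The number of arrays limits the precision: the median standard error of a difference was 0.25.

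No probe passed the test between cortisol and control septum. In limma, 0 of 10369 probes had a Benjamini-Hochberg adjusted p under 0.05 (0%), the lowest adjusted p was 0.818, and 384 probes (3.7%) had an unadjusted p under 0.05. Of these, 210 were higher in cortisol (2.03% of the tested probes) and 174 lower (1.68%). The differences below are therefore descriptions of these 10 lambs, and each named gene with an unadjusted p under 0.05 had an adjusted p of 0.818. Differences were above 0 for 54.7% of all tested probes, with a median of 0.03, and for 67.3% of the named genes, with a median of 0.15. Gene lists are read against these shares, and the text says where another scaling of the arrays turns a list's median. The titles number 5 newborns per group and do not name their ewes. The p-values therefore describe the spread between lambs, and whether each lamb had its own ewe is not given there.

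APOA1, the main protein of high-density lipoprotein, nearly separated the groups. The control arrays stood at -1.31, -1.18, -1.19, -0.88 and -1.89, and the cortisol arrays at -0.89, -0.36, -0.65, -0.35 and -0.45, numbered 1 to 5 here and in every list of values. Control 4, just above cortisol 1, was the one overlap between the groups. The difference was 0.75 ± 0.20 (SE, n = 5 per group), a ratio of 1.68, with 0.49 on slide 1 and 1.14 on slide 2. In the LV of the same lambs it was 0.68 ± 0.30. LCAT, the enzyme that esterifies cholesterol on high-density lipoprotein, had the opposite difference, -1.29 ± 0.61, with cortisol 1, 2 and 3 at -1.40, -0.79 and -2.10 and all other arrays between -0.53 and 1.47. In the authors' deposited value table LCAT was at -0.59.

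FAS, a death receptor of the cell surface, was represented by a pair of probes with the same direction. Its brighter probe gave -3.33, -3.21, -3.85, -4.38 and -3.26 in control and -2.75, -2.73, -3.24, -2.76 and -2.18 in cortisol. Cortisol 3 was the one cortisol array inside the control range. The dimmer probe, well above background on all 10 arrays, gave -3.75, -4.12, -4.65, -4.87 and -4.50 in control and -3.32, -3.64, -2.68, -3.56 and -3.00 in cortisol, with no overlap. The differences were 0.88 ± 0.27 and 1.14 ± 0.26, and the brighter probe stood at 0.73 on slide 1 and 1.09 on slide 2. Of 10 tested apoptosis and survival genes, 8 were above 0, with a median of 0.27.

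TNNC2 encodes troponin C of fast skeletal muscle, the calcium switch of its thin filament. Control arrays gave -1.25, -1.41, -1.56, 0.77 and -2.27, and cortisol arrays -0.82, 1.44, 1.85, 0.50 and 0.87. Control 4 stood among the cortisol arrays and cortisol 1 nearest to the other controls. The difference, 1.91 ± 0.60 or 3.77-fold, was the largest among named genes well above background on all 10 arrays, and a further probe gave 1.95 ± 0.66. In the authors' deposited value table the TNNC2 difference was 1.01. In LV, control 4 was again the highest control, at 0.46, and cortisol 1, at -1.86, was again the lowest cortisol array. Of other skeletal muscle genes, MYH1 and MYH2, fast myosin heavy chains, were well above background on at most 1 of 10 arrays. MYL11, a fast skeletal muscle myosin light chain, was tested and stood at 0.49, with 0.69 on slide 1 and 0.20 on slide 2. The skeletal muscle list held it under its older symbol, MYLPF, which was not matched, so it is not counted among the markers below. It was named here after its values were seen. The myogenic regulators MYOG and MYOD1 stood at 0.60 ± 0.38 and 0.75 ± 0.56, with MYOD1 detected on 2 control and 3 cortisol arrays and MYOG on 5 and 4. The 3 tested markers matched by symbol in the skeletal muscle list were TNNC2, MYOD1 and MYOG. Their summed level, in units of the array's 75th percentile, was 0.273 to 1.77 in control and 0.763 to 3.79 in cortisol. TNNC2, by far the brightest, made up most of this sum, which is therefore not separate from the TNNC2 values. The part of skeletal muscle content in the TNNC2 difference was not tested. The sarcomere genes MYH7 (0.26 ± 0.29), TPM1 (0.39 ± 0.21, but -0.05 in the authors' deposited value table) and NEB (0.67 ± 0.30), which encodes the thin filament protein nebulin, completed the 4 tested members of that list, all above 0.

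**Figure D1:**
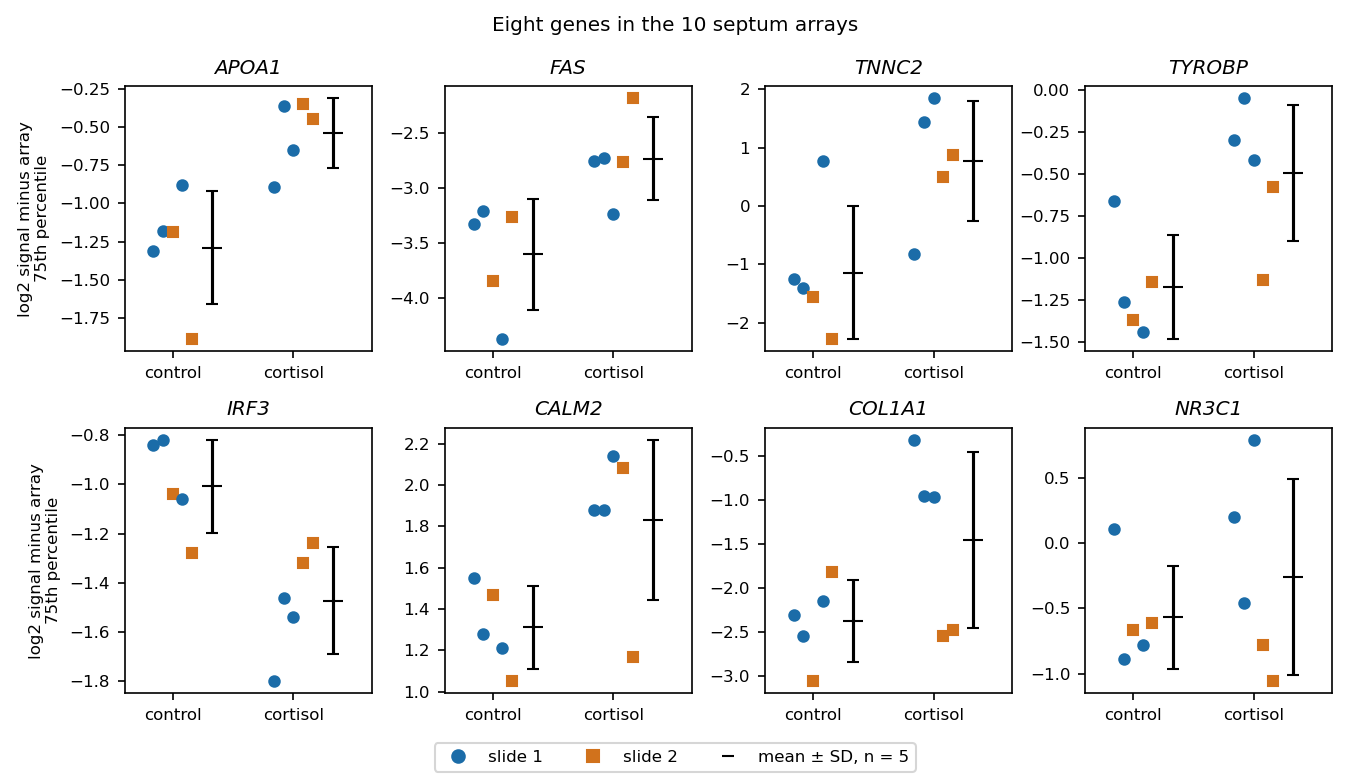
Values of 8 genes on each septum array, as log2 signal minus the array's 75th percentile, with circles for slide 1, squares for slide 2 and bars for the mean and SD of 5 arrays. In APOA1 and FAS the groups overlap by a single pair of arrays, a control just above a cortisol array. In TNNC2 control 4 stands with the cortisol arrays, in CALM2 cortisol 5 stands with the controls, and in COL1A1 cortisol 4 and 5 do.

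TYROBP, an adaptor protein of macrophage and natural killer cell receptors, was at -0.66, -1.26, -1.37, -1.44 and -1.14 in control and -0.30, -0.05, -0.42, -1.13 and -0.58 in cortisol. Cortisol 4 lay within the control values and control 1 within the cortisol ones. The difference was 0.68 ± 0.23, but 0.23 in the authors' deposited value table, and a further probe gave 0.59 ± 0.25. Of the other macrophage markers, CD14, a receptor for bacterial lipopolysaccharide, stood at 0.33 ± 0.38. In all, 5 of 6 tested macrophage markers were above 0, with a summed level of 0.987 to 1.64 in control and 1.23 to 2.11 in cortisol. In bulk tissue, more cells of a type and more RNA per cell cannot be told apart.

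Among calcium signalling genes, CALM2, which encodes calmodulin, gave 1.55, 1.28, 1.47, 1.21 and 1.05 in control and 1.88, 1.88, 2.14, 2.08 and 1.17 in cortisol. Cortisol 5 alone fell within the control range. The difference was 0.52 ± 0.21, and that in LV was 0.99 ± 0.30. PRKACA, the catalytic subunit of protein kinase A, stood at 0.25 ± 0.19. Of 7 tested calcium handling genes 5 were above 0, with a median of 0.13. The median was -0.01 over the 6 members in the authors' deposited value table. ATP1B1, a subunit of the sodium pump (0.10 ± 0.16, and -0.15 with quantile normalization), and GJA1, connexin 43 (-0.01 ± 0.29), had differences smaller than their standard errors, and 0 of 3 further GJA1 probes had the sign of the brightest.

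Several further genes had small unadjusted p-values and values above 0. PPP2CA, the catalytic subunit of protein phosphatase 2A, stood at 0.35 ± 0.15 and the histone gene H2AJ at 0.34 ± 0.15. MTHFD2, a mitochondrial enzyme of folate metabolism, was at 0.75 ± 0.33, CRYAA, a crystallin chaperone, at 0.94 ± 0.41, and ESR1, estrogen receptor alpha, at 0.74 ± 0.32. LEP, the hormone leptin, was at 0.62 ± 0.26, PRLH, prolactin-releasing hormone, at 0.69 ± 0.27, and AANAT, the enzyme that makes the melatonin precursor, at 0.60 ± 0.23. LOC654331, which the files describe without a gene symbol, stood at 0.54 ± 0.22. For these 9 genes the difference was larger on slide 1 than on slide 2, for example 1.01 against 0.04 for LEP and 0.49 against 0.15 for PPP2CA.

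Of the 30 named genes with an unadjusted p under 0.05, 7 had values below 0. IRF3, a transcription factor that switches on type I interferon, gave -0.84, -0.82, -1.04, -1.06 and -1.28 in control and -1.80, -1.46, -1.54, -1.32 and -1.24 in cortisol. Only control 5 lay within the cortisol range. The difference was -0.46 ± 0.16, and the further probe, at -0.44 ± 0.17, separated the groups fully. OVAR-DQA1, a class II histocompatibility gene, stood at -0.67 ± 0.28. CYP2J, a cytochrome P450, was at -1.16 ± 0.42, ART4, an ADP-ribosyltransferase, at -0.83 ± 0.33, TLR4, the lipopolysaccharide receptor, at -0.90 ± 0.38, and LOC443344 at -1.05 ± 0.43. All control arrays detected these 4 genes over background, but only 2, 1, 2 and 4 cortisol arrays did, respectively. All 4 took the other sign with a normexp background correction, which models each spot as signal plus background, that left out spots of very high local background (0.06, 0.23, 0.26 and 0.01 in the same order).

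Full separation of the groups was rare. In 19 probes (0.183%) all cortisol arrays lay above all control arrays, and in 20 (0.193%) all lay below. Of these 39 probes 6 belonged to named genes. CDKN2AIPNL ran from 4.02 to 4.18 in control and 4.19 to 4.49 in cortisol (0.21 ± 0.13), and OSBP, an oxysterol-binding lipid transfer protein, from -1.48 to -1.24 and from -1.87 to -1.54 (-0.28 ± 0.14). The other 4 were further probes of FAS, IRF3, CAPN2 and RPS25, the last 2 named after their values were seen. The probe of CAPN2, a calcium-dependent protease, stood at 0.39 ± 0.19, against 0.20 ± 0.16 for its brightest probe. The probe of RPS25, a ribosomal protein gene, was not well above background on any of the 5 cortisol arrays and lay below control, while its other probes stood at 0.41 ± 0.21 and 0.44 ± 0.18.

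The genes of corticosteroid action did not separate the groups. NR3C1 gave 0.11, -0.89, -0.67, -0.78 and -0.61 in control and 0.20, -0.46, 0.79, -0.78 and -1.06 in cortisol, so that the cortisol arrays spanned the control range on both sides. Its difference was 0.31 ± 0.34 over both slides, 0.70 on slide 1 and -0.28 on slide 2. NR3C2 stood at -0.04 ± 0.21. HSD11B1 gave -1.06, -1.95, -2.32, -1.77 and -2.42 in control and -2.06, -2.14, -2.00, -3.47 and -2.74 in cortisol, a difference of -0.58 ± 0.34 with -0.47 on slide 1 and -0.73 on slide 2. HSD11B2 was at 0.37 ± 0.72 and detected over background on 3 arrays per group. HSP90AA1, the chaperone that holds the receptors ready for hormone, was at 0.14 ± 0.22. Exact permutation tests over the 252 splits of the arrays, two-sided with a smallest possible p of 0.00794, gave p = 0.452 for NR3C1 and p = 0.175 for HSD11B1. The 3 other genes tested this way were MYH7 (exact p = 0.405), IGF1 (exact p = 0.111) and COL1A1 (exact p = 0.111), and the lowest value adjusted over the 5 tests was 0.278.

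Of 9 tested glucocorticoid-responsive genes 8 were above 0, with a median of 0.27. The median was 0.69 on slide 1 and -0.03 on slide 2. The member below 0 was a probe taken as PER1, a clock gene, from a file name alone, so its identity is in doubt. Without it the 8 others had a median of 0.30, with 0.85 and 0.01 on the slides. NFIL3, a transcriptional repressor that also acts in the circadian clock, gave -3.02, -2.74, -3.03, -4.38 and -3.44 in control and -2.64, -1.57, -0.12, -3.27 and -2.75 in cortisol. Cortisol 3 was the highest array, and cortisol 4 and 5 lay within the control range. The difference was 1.25 ± 0.55, with 1.94 on slide 1 and 0.22 on slide 2. In LV it was 1.92, where cortisol 4 stood at -1.90. MT3, a metallothionein, was at 0.62 ± 0.35, with 1.01 and 0.04 on the slides. Of 10 clock and melatonin genes 7 were above 0, with a median of 0.28, or 0.37 without the PER1 probe.

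The matrix genes differed among the cortisol arrays. All 17 tested collagen and matrix genes had values above 0, from 0.08 to 0.97 with a median of 0.46. On slide 1 the median was 0.86 and on slide 2 -0.15. One member is named COL6A1 in the files but described there as another chain of type VI collagen, and without it the 16 others had a median of 0.46, with 0.87 and -0.17 on the slides. The 5 members in the authors' deposited value table were also above 0, with a median of 0.14. COL1A1, the main fibrillar collagen chain, gave -2.31, -2.54, -3.06, -2.15 and -1.82 in control and -0.32, -0.95, -0.97, -2.54 and -2.48 in cortisol. Cortisol 1, 2 and 3 lay above all controls, and cortisol 4 and 5 lay within them. The difference was 1.58 ± 0.26 on slide 1 and -0.07 ± 0.46 on slide 2. BGN, the matrix proteoglycan biglycan, was highest in the same arrays, with 0.53, 0.01, -0.40, -0.92 and -1.39 in cortisol against -1.46 to -0.95 in control (1.13 ± 0.28 and 0.15 ± 0.28). COL12A1, a collagen of fibril surfaces named after its values were seen, stood at 1.82 ± 0.43 and -0.30 ± 0.43. COL1A2 was at 1.47 on slide 1 and -0.36 on slide 2, and COL3A1 at 0.76 and -0.60. The 7 tested fibroblast markers had a summed level of 96.2 to 138 in control and 89.9 to 235 in cortisol. VIM and DCN, with control means of 6.22 and 5.27, made up most of this sum. COL3A1, the brightest collagen among these markers, had a control mean of 0.82, so the sum is no measure of collagen. The part of fibroblast content in the matrix difference was not tested.

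Growth factor genes also differed among the cortisol arrays, though not all by slide. INHBA, the activin A subunit, gave -3.35, -1.88, -3.30, -2.82 and -1.73 in control and -0.63, -0.59, -0.75, -0.87 and -3.56 in cortisol, so 4 cortisol arrays lay above all controls and cortisol 5 below them. Its difference was 1.34 ± 0.58. Among 22 genes of TGF-beta, activin, BMP and SMAD signalling 16 were above 0, with a median of 0.37, 0.62 on slide 1 and -0.06 on slide 2. The authors' deposited value table holds only 3 of them, with a median of -0.04. SMAD1, which carries BMP signals, stood at 0.85 ± 0.41 but was detected over background on 2 control and 3 cortisol arrays. SMAD7, an inhibitor of the pathway named after its values were seen, was at 0.80 ± 0.47, with 0.76 on slide 1 and 0.86 on slide 2. In the insulin-like growth factor and insulin axis 12 of 15 genes were above 0, with a median of 0.24. That median was 0.40 on slide 1 and -0.32 on slide 2, where 5 of the 15 were above 0. IGF1, the circulating and local growth factor, was at 0.89 ± 0.44, and GHR, the growth hormone receptor that drives it, at 0.91 ± 0.42. IGF2, the fetal growth factor, gave 5.33, 5.64 and 5.59 on cortisol 1, 2 and 3 and 4.54 and 4.11 on cortisol 4 and 5, against 4.43 to 5.04 in control. Its receptor IGF1R was at 0.27 ± 0.50, with 1 of 2 further probes of the same sign. In the list of pressor and adrenergic signalling, ADRB1, the beta-1 adrenergic receptor, stood at 0.86 ± 0.52, with 0.32 on slide 1 and 1.68 on slide 2, and AGTR1, the angiotensin II receptor, at -0.45 ± 0.51. AGTR1 was -2.05 on cortisol 3 and 0.21 to 1.07 on the other 9 arrays.

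**Figure D2:**
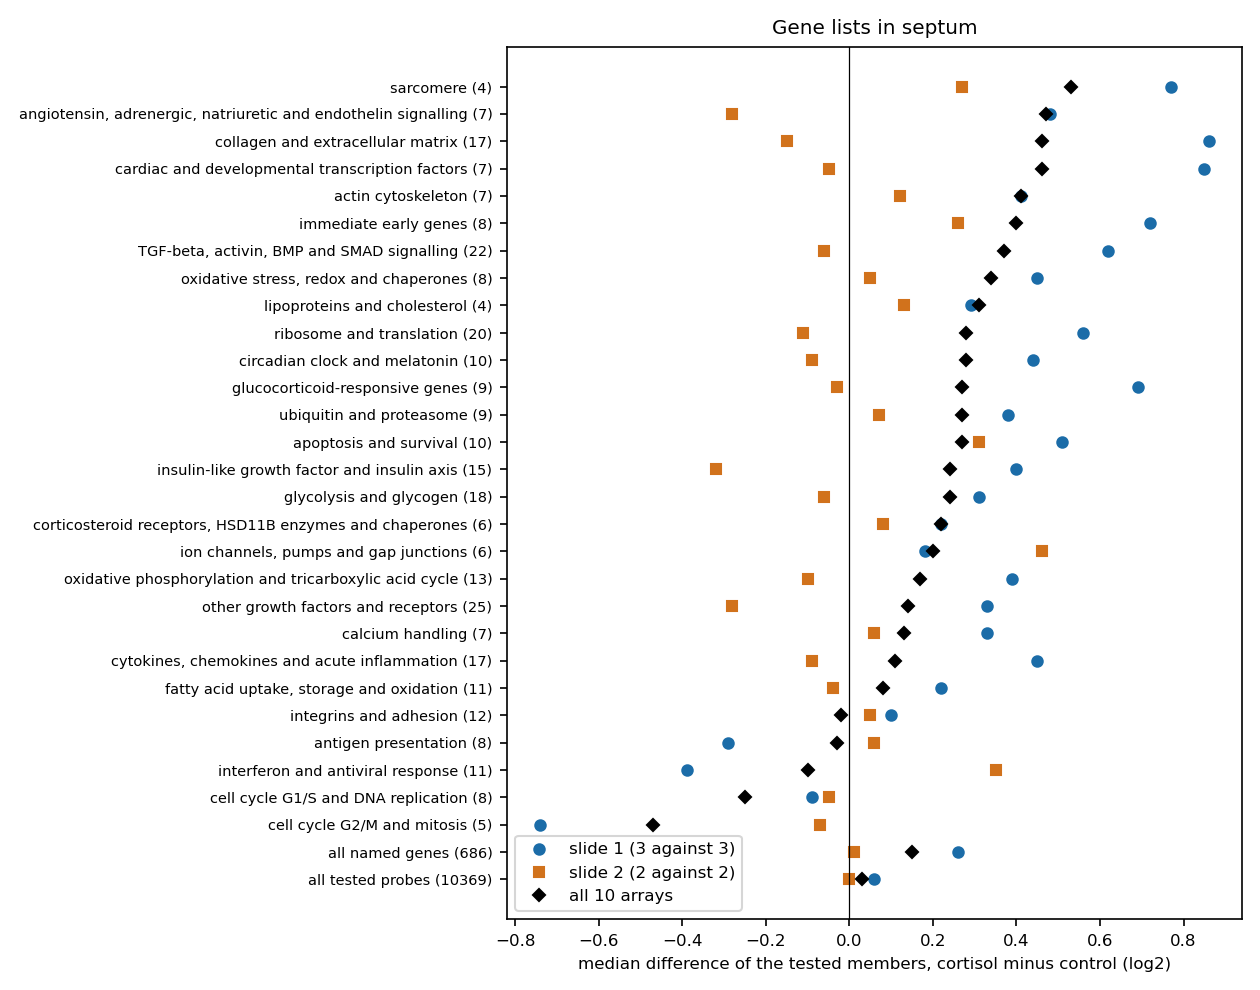
Median difference between cortisol and control over the tested members of each gene list (number of members in brackets), on the log2 scale, for all 10 arrays, for slide 1 and for slide 2. Lists of cell markers and lists with under 3 tested genes are not plotted. The matrix list has the largest slide 1 median among those plotted, 0.86, and stands at -0.15 on slide 2, while all tested probes stand at 0.06 and 0.00.

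Fuel genes had small differences. Of 18 glycolysis and glycogen genes 14 were above 0, with a median of 0.24, among them HK1, a hexokinase (0.37 ± 0.24), and GAPDH (0.29 ± 0.18, but -0.04 in the authors' deposited value table). Of 13 genes of oxidative phosphorylation and the tricarboxylic acid cycle 11 were above 0, with a median of 0.17, led by the ATP synthase subunit gene ATP5MC2 (0.42 ± 0.21), but with quantile normalization only 6 of the 13 were. Of 11 fatty acid genes 7 were above 0, with a median of 0.08. CPT1B, the muscle enzyme that commits fatty acids to mitochondria, stood at -0.26 ± 0.18, and SLC25A20, the carnitine carrier, at -0.31 ± 0.37. PPARGC1A, a coactivator that drives mitochondrial biogenesis, gave 1.53, 2.05, 3.62, 1.02 and 2.43 in control and 3.70, 1.94, 4.67, 0.16 and 1.05 in cortisol. The cortisol arrays held both the highest and the lowest values, and the difference was 0.17 ± 0.81.

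Cell cycle lists had medians below 0. Of 5 tested G2/M genes 3 were below 0, with a median of -0.47, and of 8 G1/S genes 5 were below 0, with a median of -0.25. With the altered normexp correction these medians were -0.03 and -0.05, while that of all named genes was 0.20. CCNA2, a cyclin of DNA replication and mitosis, gave -3.77, -1.67, -3.38, -1.51 and -3.29 in control and -3.01, -3.38, -4.88, -2.99 and -5.13 in cortisol. Control 2 and control 4 were the high arrays, and the other 3 controls lay within the cortisol range. Its difference was -1.15 ± 0.58, with -1.44 on slide 1 and -0.72 on slide 2, and 3 of the 5 cortisol arrays detected it over background. CDK1, the mitotic kinase, was at -0.72 ± 0.47, with 4 cortisol arrays over background, and CDK2, the kinase of DNA replication, at -0.43 ± 0.24.

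The ribosome list depended on the scaling. Of 20 ribosome and translation genes 19 were above 0, with a median of 0.28, which was 0.56 on slide 1 and -0.11 on slide 2. With quantile normalization 12 of 20 were above 0, with a median of 0.01, and in the table deposited by the authors only 6 of 19, with a median of -0.04. RPS27A, which encodes ubiquitin fused to a ribosomal protein, stood at 0.50 ± 0.23, RPS2 at 0.42 ± 0.21, and TPT1, a translation-linked survival protein, at 0.62 ± 0.29. Of 9 ubiquitin and proteasome genes 8 were above 0, with a median of 0.27, which was 0.03 with quantile normalization. All 8 redox and chaperone genes were above 0, with a median of 0.34, and 7 were with quantile normalization. CRYAB among the heart markers was at 0.39 ± 0.24. In the actin cytoskeleton list 6 of 7 genes were above 0, with MYL6, a nonmuscle and smooth muscle myosin light chain, at 0.47 ± 0.28 and CFL1, cofilin, at 0.41 ± 0.23. All 7 cardiac and developmental transcription factors were above 0, but on slide 2 alone only 3 were. Their median was 0.85 on slide 1 and -0.05 on slide 2. HIF1A, the oxygen-sensing factor, was at 0.79 ± 0.40, with 1.40 and -0.13 on the slides.

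**Figure D3:**
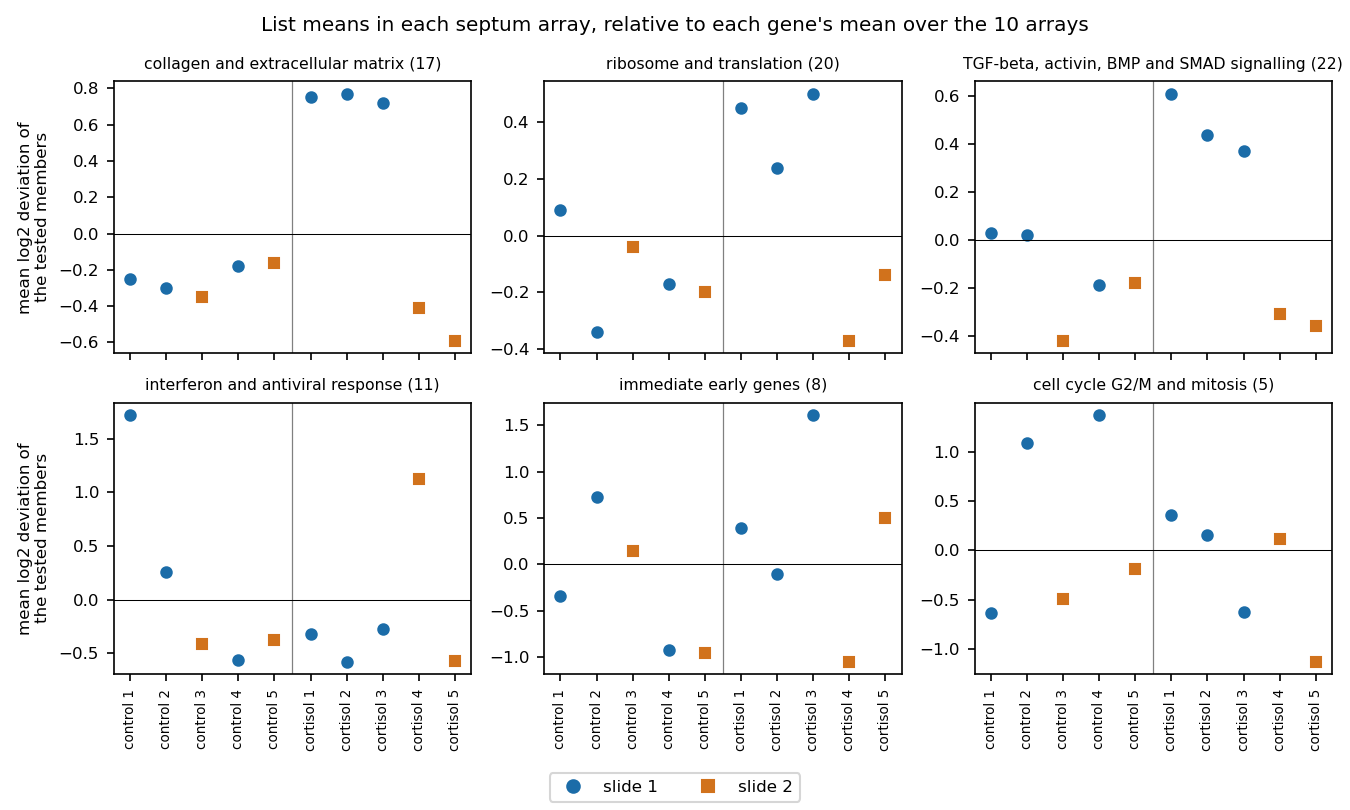
Mean over the tested members of 6 gene lists on each septum array, as log2 deviation from each gene's mean over the 10 arrays, with circles for slide 1 and squares for slide 2. In the matrix list cortisol 1, 2 and 3 stand at 0.75, 0.77 and 0.72 and cortisol 4 and 5 at -0.41 and -0.59, while the interferon list is highest in control 1 and cortisol 4.

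Interferon-stimulated genes were high in single lambs of both groups. ISG15, a ubiquitin-like protein made in response to interferon, gave 3.97, -0.17, -2.37, -3.10 and -2.62 in control and -2.87, -3.56, -2.94, 2.17 and -3.61 in cortisol. Control 1 and cortisol 4 stood far above the rest, and control 2 in between. MX1, an antiviral GTPase, had the same high arrays, with 3.47 in control 1, 2.11 in cortisol 4 and -0.22 in control 2, and so did RTP4, with 3.30, 2.24 and 0.23. The LV arrays with the same numbers repeated this, since ISG15 was 4.31 in LV control 1, 2.71 in LV cortisol 4 and 0.32 in LV control 2, and -3.95 to -2.61 in the other 7. The septum differences of -1.30 ± 1.46 for ISG15, -0.88 ± 1.20 for MX1 and -0.94 ± 0.92 for RTP4 were each smaller than or near their standard errors, and that of MX1 was 0.12 without control 1. Of 11 interferon genes 3 were above 0, with a median of -0.10, and 6 were with the altered normexp correction, with a median of 0.01. With that correction 523 of the 686 named genes were above 0, with a median of 0.20.

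Immediate early genes, which are switched on within minutes of a stimulus, also varied within groups. FOS gave -2.93, 0.92, 0.04, -4.14 and -3.74 in control and -0.84, -2.60, 2.70, -3.06 and 1.30 in cortisol, and the LV arrays of the same lambs ran from -4.37 in control 4 to 2.44 in cortisol 3. JUNB was highest in cortisol 3, at 1.59, against -3.18 to -0.66 elsewhere. JUN stood at 0.37 ± 0.24. Of 8 immediate early genes 7 were above 0, with a median of 0.40. PTGS2, the inducible cyclooxygenase, was 1.79 in cortisol 3 and -4.75 to -1.57 elsewhere, and ICAM1, an endothelial adhesion molecule, stood at 0.99 ± 0.45 with 4 of 5 control arrays well above background. The time between birth and collection could differ among these lambs, and its part in these values was not tested.

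Markers of blood cells were high in single arrays. BAC5, a cathelicidin stored in neutrophils, was 2.62 in control 2 and 1.99 in cortisol 3 and -6.48 to -1.32 in the other 8, and LV gave 3.01 and 1.52 in the same lambs. The 3 tested neutrophil markers summed to 0.11 to 15.8 in control and 0.0364 to 10.1 in cortisol. HBB, beta globin, was 6.89 in control 2 and 3.66 to 5.71 elsewhere (0.17 ± 0.60). The T cell receptor genes CD3D and CD3E stood at 0.49 ± 0.72 and 0.42 ± 0.72, each well above background on 4 of 5 arrays per group, and the further CD3E probe had the other sign. Among vessel genes, endothelial markers lay on both sides of 0, with NOS3, which makes nitric oxide, at 0.47 ± 0.28, TIE1, a receptor of vessel remodelling, at -0.69 ± 0.36 and PECAM1 at 0.13 ± 0.26. TIE1 was -3.93 in cortisol 3 and -2.43 to -1.38 elsewhere. A further TIE1 probe stood at -0.58 ± 0.24, with -3.32 to -2.29 in cortisol and -2.63 to -1.70 in control. CNN1, calponin of smooth muscle, was at -0.17 ± 0.40.

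**Figure D4:**
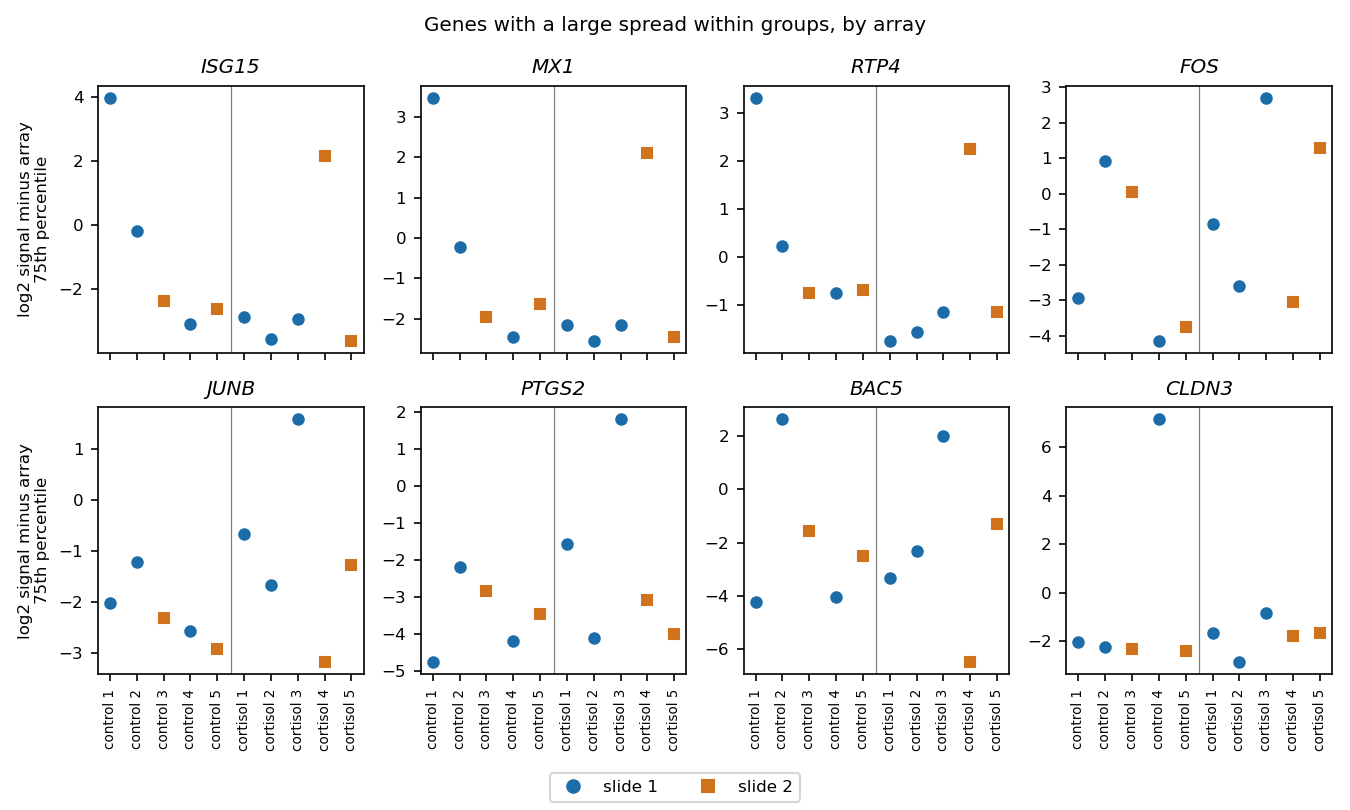
Values of 8 genes on each of the 10 septum arrays, as log2 signal minus the array's 75th percentile, with circles for slide 1 and squares for slide 2. ISG15, MX1 and RTP4 share 2 high arrays, control 1 and cortisol 4, FOS, JUNB and PTGS2 are highest in cortisol 3, and CLDN3 stands apart in control 4 alone, at 7.16.

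The arrays of the cortisol group spread more widely than those of the control group. The standard deviation of an array's probes around its group mean was 0.369 to 0.446 in control and 0.488 to 0.678 in cortisol, with cortisol 3 highest and cortisol 4 next at 0.636. Cortisol 3 was also the dimmest septum array, with the lowest 75th percentile, 154.6, and the lowest share of spots well above background, 63.95%. The part of signal level in its values was not tested. Over all tested probes the median SD was 0.29 in control and 0.45 in cortisol, and 77.4% of probes had the larger SD in cortisol. Of the 686 named genes 523 did. No test of this difference in spread was run.

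The slide terms were tested because both slides held both groups. The difference of the cortisol effect between slides passed for 0 of 10369 probes in limma (0%), with 1106 probes (10.7%) at an unadjusted p under 0.05 and a lowest adjusted p of 0.377. PPARGC1A had the widest gap among the genes named for this test, with 1.90 ± 0.66 on slide 1 and -2.42 ± 0.53 on slide 2 (difference -4.32 ± 1.03, limma adjusted p = 0.402), and its 2 further probes had the same signs on each slide. SLC2A1, the glucose transporter GLUT1, stood at 2.13 ± 0.58 and -1.62 ± 0.43 (limma adjusted p = 0.39), and 4 of the 5 cortisol arrays detected it. IGF2 stood at 0.87 ± 0.22 and -0.68 ± 0.25, TIMP2, an inhibitor of matrix proteases, at 0.97 ± 0.23 and -0.66 ± 0.28, and GPD2, a mitochondrial enzyme of the glycerol phosphate shuttle, at 1.14 ± 0.21 and -0.59 ± 0.35, each with a limma adjusted p of 0.377. WNT5A, a secreted Wnt ligand with a large spread, was 0.72 and 0.79 in cortisol 2 and 3 and -3.82 to -1.20 in the other 8 arrays.

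Slide 2 against slide 1, with treatment in the model, passed for 1 probe (0.00964%), which could not be named, at -3.99 ± 0.45 (limma adjusted p = 0.0474). At an unadjusted p under 0.05 there were 1690 probes (16.3%). Among named genes GFAP, a glial filament, had the lowest adjusted p (-1.64 ± 0.25, limma adjusted p = 0.0875), and the muscle regulator MYOD1 (-1.66 ± 0.30) and NOG, an inhibitor of BMPs (-1.73 ± 0.31), had a limma adjusted p of 0.0941. The 6 lambs whose septum lay on slide 1 all had their LV on slide 3. Of the 4 lambs whose septum lay on slide 2, control 3, control 5 and cortisol 5 had their LV on slide 2 as well, and cortisol 4 on slide 4. A slide and the lambs on it can therefore not be told apart. In LV, PPARGC1A gave 4.91, 2.13 and 4.13 for the first 3 cortisol lambs, against 0.23 and 1.36 for the last pair, and COL1A1 gave -0.33, -0.52 and 0.46 against -2.07 and -1.91.

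**Figure D5:**
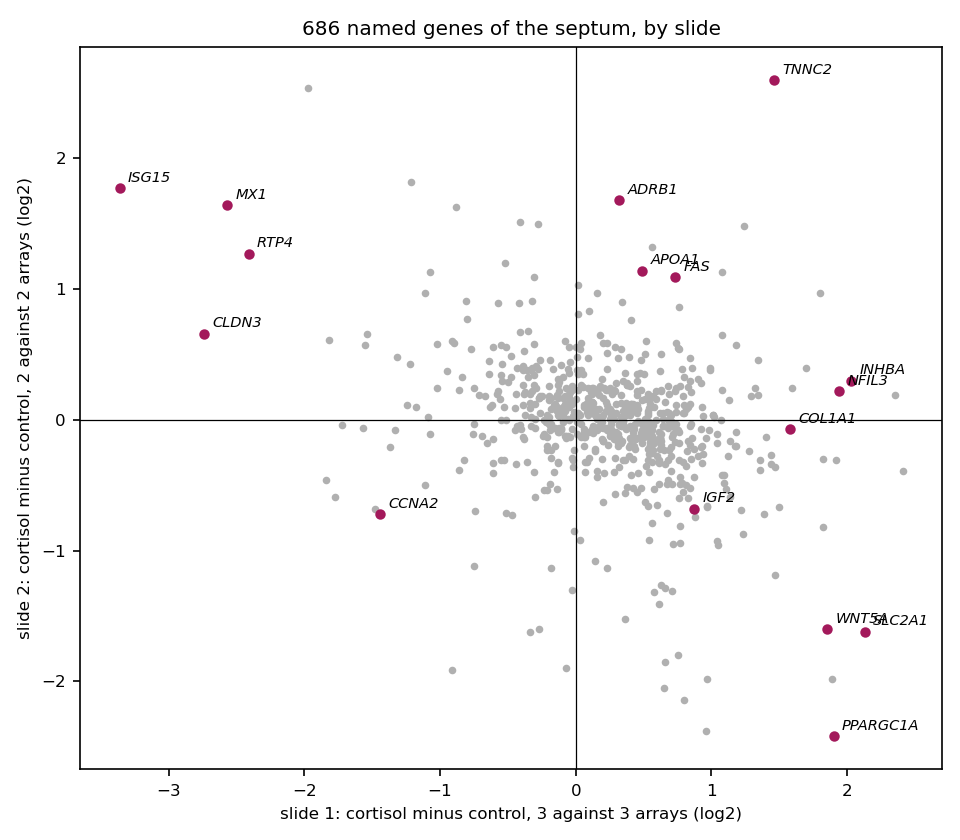
Each of the 686 named genes as a point, with the cortisol minus control difference on slide 1 (3 against 3 arrays) on the horizontal axis and on slide 2 (2 against 2 arrays) on the vertical axis, both log2. TNNC2, APOA1 and FAS are above 0 on both slides, PPARGC1A, SLC2A1 and WNT5A above 0 on slide 1 and below 0 on slide 2, and ISG15, MX1 and RTP4 the reverse.

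The septum was set against the LV of the same lambs to ask whether the differences depended on the region. LV and septum arrays with the same group and number were taken as 1 lamb, since each septum array's deviations correlated best with its own LV array in 10 of 10 (r = 0.417 to 0.799 across probes, which are not independent replicates). The difference of the cortisol effect between septum and LV passed for 0 of 10069 probes in limma (0%), with 38 probes (0.377%) at an unadjusted p under 0.05 and a lowest adjusted p of 1. With the lamb as a block, the count passing was 0 and that at an unadjusted p under 0.05 was 406. The 2 regions share their lambs, so the values stand side by side only. FAS was 0.88 in septum and 0.91 in LV, TNNC2 1.91 and 2.13, IRF3 -0.46 and -0.42, INHBA 1.34 and 1.60, and GHR 0.91 and 0.97. Among named genes ITGA4, an integrin subunit of blood cells, had the lowest unadjusted p for this difference, with 0.34 in septum and -0.66 in LV (limma adjusted p = 0.839 with the lamb as a block), but only 4 control and 2 cortisol septum arrays were well above background. Other genes with a gap were CYP2J (-1.16 in septum and -0.15 in LV), TLR4 (-0.90 and -0.22), NFIL3 (1.25 and 1.92), CRYAB (0.39 and -0.26) and RPS2 (0.42 and -0.16), and none of them passed the test of the difference.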

How the data were processed

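Agilent Feature Extraction 10.1.1.1, per the file headers, scanned each Cy3 array and made the deposited processed intensity by background subtraction and detrending, with no normalization between arrays. The authors' deposited value table holds log2 intensity, normalized by a method not given in the sources used here (limma is in the submitters' processing notes). Its septum columns had medians of 9.49 to 9.54 and values in all 10 columns for 4920 of 10373 probes. Centring and background correction stay unknown.

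Outlier spots (3 to 19 per septum array) and control spots were left out, and 1 spot was saturated. Signals were divided by the array's 75th percentile and put on a log2 scale. Two-sided tests with Benjamini-Hochberg adjustment over all probes tested came from limma 3.58.1 (R 4.3.3, statmod 1.5.0), after reading the files with data.table (version 1.17.8). Names and summaries used Python 3.11.15 with pandas 2.3.3 and numpy 2.4.6, and figures matplotlib 3.10.9. A gene name was found for 1715 of 15008 probes, by RefSeq accession (727), gene identifier (139), symbol (495), synonym (20), description (288) or the scanner file's name alone (46), in all 1042 genes. A few description matches were added after some values were seen. Genes are represented by the probe with the highest mean, and 252 of 305 genes with further tested probes had all of them on the same side of 0.

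The comparison, the members and the gene lists were chosen with earlier results of these data known. Named genes are, by rule, the 24 with the smallest p, the 2 with the smallest p per list, 28 genes of corticosteroid action and heart muscle where tested, genes whose groups do not overlap, the 8 with the largest difference and the 8 with the largest spread, the 6 leading genes of each other comparison, and tested sarcomere genes and cell markers; 4 of them are not reported here. A list is given by how many members lie above 0 and its median, beside the same for all probes. Simulated septum data with 10369 probes gave 50 of 100 changes of log2 1, 89 of 100 of log2 2, and 12 false calls. The simulation drew independent noise with the same SD per probe in both groups. The septum arrays spread more in cortisol and their genes vary together, so these counts do not measure the power of the comparison.

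Deviations of same-numbered control and cortisol septum arrays correlated weakly (r = 0.0586 to 0.272). For 3 of 5 control arrays the same-numbered cortisol array correlated best. The titles state no pairing, so the main test left them unpaired, which these correlations do not settle. Alternatives covered scaling, background correction, filters, slide, replicate and lamb blocks, array weights and each array left out.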

Additional observations from a re-analysis of the deposited data

Results flagged for a closer look

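Values of 96 genes named in the report were screened for a single array far from the other 4 of its group. The measure was Dixon's ratio of that gap to the group's range. Of 192 group tests 20 passed the limit. Chance gives about 1 in 20 for unselected, independent genes. Some of these genes were chosen for their large spread or difference, and some vary together, so the count cannot be read against that rate. No explanation was tested for any of them.

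Cortisol 4 was the distant array for 6 of the 20, high for ISG15 (ratio 0.872), MX1 (0.917) and RTP4 (0.847) and low for LOC654331 (0.711), GAPDH (0.8) and MYOG (0.729). Control 1 was distant for 5, high for RTP4 (0.758), NR3C1 (0.72), NR3C2 (0.749) and IGF1R (0.823) and low for COL12A1 (0.879). Cortisol 3 was low for AGTR1 (0.725), ADRB1 (0.838) and TIE1 (0.758), and cortisol 5 was low for INHBA (0.904) and CALM2 (0.727). Control 4 was high for CLDN3 (0.962) and low for HIF1A (0.873) and LEP (0.718). Control 5 was low for CD3D (0.727).

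CLDN3, a tight junction claudin, had the highest ratio. Its brightest probe gave 7.16 in septum control 4 and -2.41 to -2.05 in the other controls. The further CLDN3 probe gave -1.83 in the same array and -2.55 to -1.96 in the other controls, and the first probe gave -2.31 in the LV array of that lamb. The septum differences of the pair were -1.38 ± 1.63 and 0.47 ± 0.29.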

How the results depend on the processing

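Cortisol against control in septum gave 0 passing probes in limma under all 24 alternatives, with 7 to 1817 probes at an unadjusted p under 0.05. Without a filter, over 15008 probes, 1817 were, and the lowest adjusted p was 0.0551, the lowest over these alternatives. Leaving out an array gave 208 to 1342 such probes, most without cortisol 4 (1342) and cortisol 5 (905), and a lowest adjusted p of 0.377 to 0.978. With the control and cortisol numbers as a replicate block, 0 probes passed and 678 were at an unadjusted p under 0.05 (lowest adjusted p 0.664). Normexp failed on control 4 and cortisol 1, where 7 and 6 spots had a very high local background. With those spots left out, an alternative chosen after seeing the data, 0 passed, 1010 were at an unadjusted p under 0.05, and the median of all probes was 0.14 in place of 0.03. Leaving out both cortisol 3 and cortisol 4, also chosen after seeing the data, gave 0 and 756. The difference between slides passed for 0 to 7 probes when 1 array was left out (2, 7 and 1 without cortisol 2, 4 and 5). Slide 2 against slide 1 passed for 0 probes with quantile, median or normexp processing, the deposited table, the stricter filter or no filter, and for 0 to 5 when 1 array was left out (5 without control 5, 2 without cortisol 1).

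Of 2230 values of 96 genes under alternatives, 91 had the other sign, in 47 genes, and 0 passed. On slide 2 alone these were, above 0, NR3C2 0.12, CDK2 0.23, GJA1 0.53, SLC25A20 0.60, CLDN3 0.66, RTP4 1.27, MX1 1.64 and ISG15 1.77, and, below 0, RPS2 -0.01, CD14 -0.04, JUN -0.05, CRYAB -0.06, RPS25 -0.06, COL1A1 -0.07, PECAM1 -0.07, GFAP -0.11, HIF1A -0.13, HK1 -0.17, NR3C1 -0.28, COL12A1 -0.30, COL1A2 -0.36, IGF1R -0.39, PTGS2 -0.39, MYH7 -0.49, GPD2 -0.59, COL3A1 -0.60, TIMP2 -0.66, IGF2 -0.68, WNT5A -1.60, SLC2A1 -1.62 and PPARGC1A -2.42. On slide 1 alone HBB was -0.52 and BAC5 0.66. With normexp CYP2J was 0.01, ART4 0.13, TLR4 0.10, ATP1B1 -0.09, PPARGC1A -0.10 and SLC25A20 0.10, and without the high-background spots CYP2J 0.06, ART4 0.23, LOC443344 0.01, TLR4 0.26, ATP1B1 -0.06 and SLC25A20 0.08. In the deposited table a smaller absolute difference was found for 34 of the 39 genes it holds, and HBB and IGF2 were -0.02, GAPDH -0.04, MB and TPM1 -0.05 and ATP1B1 -0.27, and with quantile normalization MB was -0.07 and ATP1B1 -0.15. With array weights GJA1 was 0.05, and without cortisol 3 and 4 HSP90AA1 was -0.12, CD3D -0.20, HBB -0.25, CD3E -0.43, GJA1 0.19 and AGTR1 0.24. With 1 array left out NR3C2 ranged from -0.12 to 0.12, HSD11B2 -0.05 to 1.03, GJA1 -0.20 to 0.14, IGF1R -0.06 to 0.60, AGTR1 -0.69 to 0.09, PPARGC1A -0.42 to 0.71, COL3A1 -0.06 to 0.52, HBB -0.07 to 0.74, MX1 -1.77 to 0.12, CLDN3 -1.89 to 0.50, WNT5A -0.08 to 1.07, CD3D -0.13 to 0.81, CD3E -0.11 to 0.83, BAC5 -1.41 to 0.80, PECAM1 -0.04 to 0.29 and CNN1 -0.41 to 0.12. Of 829 list medians, 29 moved by over 1 SD, 14 of them on slide 2 alone. The cause of these shifts was not tested.

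The limits are 5 lambs per group, a slide that cannot be told apart from the lambs on it, the unknown time after birth of each lamb, and few named probes. Dim genes near background depend on the background correction.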
